A study of Oryza sativa with 27 samples.

Results

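Suspension-cultured rice cells were sequenced 30 min after a dose of the safener metcamifen and set against cells that had received the carrier alone for the same time. The comparison rests on 6 of the 27 libraries of the series, 3 labelled metcamifen and 3 labelled DMSO, chosen by those labels. All cultures were of Oryza sativa, cultivar Tsukinohikari, without any transgene in the labels, and were 5 days old when dosed. Metcamifen was given from a DMSO stock to a final concentration of 5 µM, and the controls received DMSO alone. Libraries of another treatment, 5 µM cyprosulfamide for 30 min (n = 3), and the metcamifen and DMSO libraries of 90 and 240 min (n = 3 each) were used to place the early response. The values were counts of polyA RNA reads per locus, of which 45866 of 46102 rows carried rice LOC_Os identifiers.

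Safeners are compounds applied with a herbicide so that the crop is injured less while the weed is still controlled. In cereals they are known to raise the enzymes of xenobiotic detoxification, among them cytochrome P450 monooxygenases, glutathione S-transferases, glycosyltransferases and the transporters that move the conjugates into the vacuole. Metcamifen and cyprosulfamide are both acyl sulfonamides with a methoxybenzoyl group. On the other ring metcamifen carries a methylurea and cyprosulfamide a cyclopropyl amide. A sample taken within the first hour of a dose precedes much of the later transcriptional response and shows which transcripts move first.

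The deposited table gives no gene names. Of its 46102 identifiers 0 matched the rice gene table used here, and 1 did so once the prefix LOC_ was dropped, so the families of the responding genes could not be read. Members of detoxification, transcription factor and other families, and markers of the cell type, could therefore not be counted, and the label of suspension cells was not checked against markers. The answer to which genes respond first is given by locus, by level, by time and by place. The place comes from the identifier, which holds the chromosome and a number that rises along it. Consecutive LOC_Os identifiers differed by 10 in 93.3% of steps. Loci of one duplicated family often lie side by side in plant genomes, but neighbours need not be related, and no relation was tested. The sources used here do not say whether strand was used or how reads that fit several loci were counted. For any locus named that overlaps or closely resembles another, the count is uncertain.

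The DMSO libraries held 19455668, 16716222 and 17174115 counts, and the metcamifen libraries 7278921, 26162571 and 19523523. Metcamifen replicate 1 was thus the shallowest of the 6. Of the 45866 LOC_Os loci, 19489 had too few counts to be tested and 26377 were tested, within 26465 loci of all kinds. The labels number the replicates but do not say that they were separate cultures, so p-values measure the spread between these samples, which may be technical. In bulk RNA, a change in the share of cells of a type and a change in RNA per cell cannot be told apart.

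At 30 min, metcamifen raised 307 loci, 1.16% of those tested, and lowered 49, or 0.185% (adjusted p under 0.05, edgeR's quasi-likelihood test with Benjamini-Hochberg adjustment, two-sided). An unadjusted p under 0.05 was reached by 1939 of the 26465 loci. For cyprosulfamide against DMSO at 30 min it was reached by 2548, where 1 locus passed after adjustment. The unadjusted count is therefore not read as the breadth of the response. All 356 called loci carried LOC_Os identifiers. The raised loci had a median log2 fold change of 1.38, from 0.28 to 8.26, and the lowered loci one of -0.81, from -6.61 to -0.22, while the median over all loci was -0.00369. Of the raised loci 104 changed by less than 2-fold, 114 by 2- to 4-fold, 46 by 4- to 8-fold, 27 by 8- to 16-fold and 16 by at least 16-fold. Among the lowered, 31 of 49 stayed under 2-fold and 18 passed it.

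The raised side was counted much alike when single libraries were omitted, at 265 to 287 loci. The lowered side was not. It held 19 loci without metcamifen replicate 2, 19 without metcamifen replicate 3, 17 without DMSO replicate 3 and 75 without DMSO replicate 1. The count lowered at least 2-fold, 18 with all libraries, was 5 without metcamifen replicate 2, metcamifen replicate 3 or DMSO replicate 3. The same count was 30 without metcamifen replicate 1, 35 without DMSO replicate 1 and 34 without DMSO replicate 2. Through all 6 omissions, 236 of the 307 raised loci and 11 of the 49 lowered kept their calls. Leaving out DMSO replicate 3 moved the raised share of all calls to 94.35%, and leaving out DMSO replicate 1 moved it to 78.01%.

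**Figure D1:**
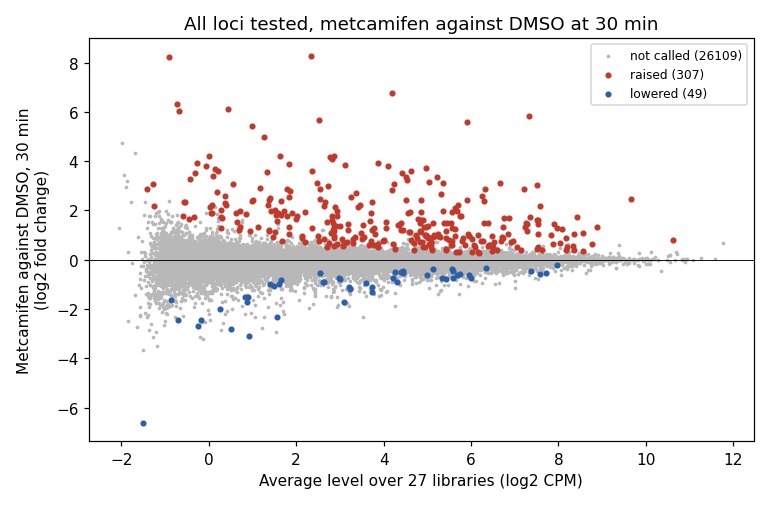
Each point is 1 of the 26465 loci tested, with its average level over the 27 libraries (log2 CPM) on the x axis and its log2 fold change for metcamifen against DMSO at 30 min on the y axis. The 307 raised loci (red) reach 8.26 and lie across the whole range of levels, whereas most of the 49 lowered loci (blue) lie close to the line at 0.

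Both loci with the smallest p among those raised went from a low level in DMSO to a high one. LOC_Os01g16146, on chromosome 1, stood at 8.81, 10.6 and 10.8 CPM (counts scaled to a common, TMM-adjusted library total) in the DMSO libraries and at 95.0, 106 and 104 CPM under metcamifen. The lowest treated library was thus far above the highest control. The means were 10.1 ± 1.09 and 102 ± 5.76 CPM (SD, n = 3), which is a log2 fold change of 3.34 with SE 0.119 (adjusted p = 6.51e-15, edgeR). LOC_Os07g23570, on chromosome 7, stood at 3.07, 5.22 and 4.13 CPM in DMSO and at 240.3, 175 and 188 CPM under metcamifen. Its log2 fold change was 5.61 with SE 0.212 (adjusted p = 7.96e-15, edgeR), and the treated libraries differed among themselves by less than the gap to the controls. LOC_Os01g08440, named by the comparison with cyprosulfamide below, was close to silent in DMSO, with 5, 9 and 7 counts. Under metcamifen it had 284, 1230 and 855 counts, a mean of 43.7 ± 3.54 CPM (SD, n = 3), which is a log2 fold change of 6.77 with SE 0.256 (adjusted p = 7.96e-15, edgeR). With all libraries thinned to the depth of the smallest, that value was 5.85.

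Both named lowered loci fell by less than 2-fold, as did 31 of the 49. LOC_Os07g25540 stood at 54.2, 56.8 and 61.7 CPM in DMSO and at 34.1, 40.8 and 36.7 CPM under metcamifen. The groups did not overlap, and the log2 fold change was -0.62 with SE 0.0898 (adjusted p = 7.2e-05, edgeR). LOC_Os03g06840 stood at 56.9, 61.3 and 51.3 CPM in DMSO and at 33.8, 31.9 and 35.3 CPM under metcamifen, again apart (log2 fold change -0.75 with SE 0.116, adjusted p = 0.000212, edgeR). Both calls held in each of the 15 alternative settings tried.

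**Figure D2:**
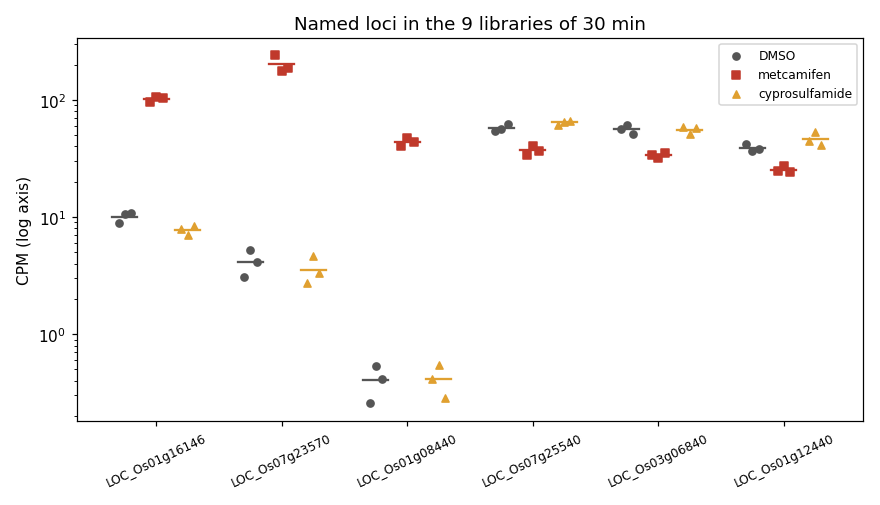
CPM on a log axis of 6 named loci in the 9 libraries of 30 min, with 1 point per library and a line at the mean of each group of 3. At the 3 loci on the left every metcamifen library stands far above the DMSO and cyprosulfamide libraries, as for LOC_Os07g23570 at 175 to 240.3 CPM against 3.07 to 5.22 in DMSO. At the 3 loci on the right the metcamifen libraries lie a little below the others.

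The 3 called loci without a single count in one of the groups were singled out after the values were seen. LOC_Os09g31990 had 12, 59 and 41 counts under metcamifen and 0 in each DMSO and cyprosulfamide library, at least 37.7-fold higher than DMSO by the floor of 3 counts for the group. Its adjusted p was 2.43e-05 in edgeR, and the call held in all 15 alternative settings. No DMSO library held a count of LOC_Os09g34260, and the metcamifen libraries held 5, 14 and 9, which puts the pooled level at least 9.42-fold higher (floor of 3 counts for the group). In cyprosulfamide it had 1, 4 and 2 counts. Its adjusted p was 0.000305 in edgeR and 0.0958 after thinning. LOC_Os07g37280 had 21, 3 and 12 counts in DMSO and 0 in each metcamifen library, at least 11.9-fold lower. Its adjusted p was 0.00739 in edgeR, and leaving out metcamifen replicate 2 or 3 ended the call, with adjusted p up to 0.0893. With the 6 compared libraries alone, neither LOC_Os09g34260 nor LOC_Os07g37280 passed the low-count filter. Both were tested only because the filter also took in the other libraries of the series. LOC_Os09g34260 had a mean of 0.568 CPM under metcamifen at 30 min and 3.28 CPM at 90 min. The 3 bounds allow for counting error in the group without counts only. The counts of the other group were taken as they stand, and the spread between libraries was left out.

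Raised loci were found at every level of expression. By the mean CPM in the DMSO libraries, 50 of 3382 LOC_Os loci under 1 CPM were raised (1.48%), 102 of 8679 between 1 and 10 CPM (1.18%), 127 of 11905 between 10 and 100 CPM (1.07%) and 28 of 2411 at 100 CPM or more (1.16%). Classed by the cyprosulfamide libraries, the shares were 1.42, 1.14, 1.09 and 1.25%. Classed by the mean over the 6 libraries, which holds the rise itself, they were 0.356, 1.17, 1.21 and 2.06%, so no order of the shares with level is read from them. The classes by DMSO and cyprosulfamide were chosen after seeing the data. The low-count filter took in all 27 libraries, those of metcamifen among them. Loci close to silent in DMSO were therefore tested only where other libraries held enough counts. How far this moved the share raised under 1 CPM was not tested. The lowered loci numbered 3, 17, 25 and 4 in the classes by DMSO. In DMSO the raised loci had a median of 10.2 CPM, beside 12.3 CPM for all tested loci. The lowered loci had a median of 20.9 CPM. Every metcamifen library lay above every DMSO library at 307 of 307 raised loci, an order held by 6.38% of all loci, and below at 47 of 49 lowered loci, an order held by 5.35% of all loci. These same libraries gave the calls.

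The share of counts at the raised loci was much alike in the 3 treated libraries. The raised loci took 1.05, 1.16 and 1.15% of all counts in the DMSO libraries and 2.63, 2.53 and 2.59% in the metcamifen libraries. The cyprosulfamide libraries, which were not compared in that choice, gave 1.09, 1.16 and 1.14%. The median coefficient of variation at the raised loci was 15.9% in DMSO and 9.69% under metcamifen, beside 11.2% and 9.81% over all tested LOC_Os loci. The DMSO and metcamifen libraries also gave the calls, so their likeness and spread at these loci are descriptions. Metcamifen replicate 1, the shallowest, was the highest of the 3 at 142 of the 307 raised loci, replicate 2 at 57 and replicate 3 at 108.

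A small number of loci carried much of the added RNA. Summed over the 307 raised loci, the mean level rose by 14853 CPM, and the 10 loci with the largest gain made up 32.8% of that sum. LOC_Os06g11290 alone gained 1688 CPM, or 11.4%. Next came LOC_Os05g07700, at 1132, 1182 and 1258 CPM in DMSO and 2117, 2070 and 2065 CPM under metcamifen, which was already abundant in carrier-treated cells. It rose by 0.81 on the log2 scale (SE 0.0772, adjusted p = 1.16e-07, edgeR). These values are counts per library and not per length, so they do not rank the loci by number of transcripts.

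Some raised loci lay beside each other. With neighbours defined as loci on the same chromosome whose numbers differ by at most 30, 73 of the 307 raised loci had a raised neighbour, 23.8%, beside 895 of the 26070 tested loci that were not raised, 3.43%. The share was 18.2% against 1.17% for a difference of at most 10, and 27.4% against 10.4% for at most 100. The 49 lowered loci included 6 with a lowered neighbour, 12.2%, beside 0.684% of the loci not lowered. These 6 formed only 3 pairs, and 11 of the 49 lowered calls held through all 6 omissions of a library. No test was made of these shares, since neighbouring loci are not independent.

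The neighbours formed 33 runs of raised loci, of which 28 held 2 loci, 4 held 3 and 1 held 5. Chromosome 10 held 7 of the 33 runs and chromosome 1 held 5. Within 24 of the 33 runs the log2 fold changes lay within 1 of each other. Over all raised loci the quartiles of the log2 fold change were 0.84 and 2.22. No such share was computed for raised loci that are not neighbours, so no likeness of neighbours is read from this count. Counts of a pair of neighbours can come from the same reads. In 2 of 40 neighbouring pairs the counts of both loci lay within 10% of each other in every library of the 6. There were 3 runs of lowered loci, each of 2 loci, on chromosomes 3 and 4.

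The run of 5 lay on chromosome 6 and held the locus with the largest gain of all. It was singled out after the values were seen. LOC_Os06g11260, the first of the run, stood at 0.41, 0.24 and 0.413 CPM in DMSO and at 18.7 ± 4.45 CPM under metcamifen (SD, n = 3; lowest library 15.2), from near silence to a moderate level (log2 fold change 5.66 with SE 0.303, adjusted p = 4.4e-12, edgeR). LOC_Os06g11280 went from 9.48, 15.7 and 16.9 CPM to 53.8, 51.6 and 53.1 CPM (log2 fold change 1.92 with SE 0.229). LOC_Os06g11290 went from 234, 411 and 471 CPM to 2192, 1913 and 2074 CPM (log2 fold change 2.47 with SE 0.284, adjusted p = 2.34e-06). Its DMSO replicate 1 was the lowest control here and also at 90 and 240 min, at 216 CPM against 386 and 397, and at 181 CPM against 437 and 422. LOC_Os06g11300 and LOC_Os06g11304 went from means of 16.1 ± 2.72 and 15.4 ± 2.75 CPM to 36.8 ± 1.07 and 35.7 ± 1.35 CPM (SD, n = 3). Between these neighbours, the smaller count was 93.14 to 97.98% of the larger in the 6 libraries. Whether the same reads were counted at both loci was not tested. Summed over the run, the level was 271, 456 and 526 CPM in DMSO and 2341, 2055 and 2215 CPM under metcamifen. The table holds 6 loci in this stretch, of which 5 were tested and all 5 were raised.

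**Figure D3:**
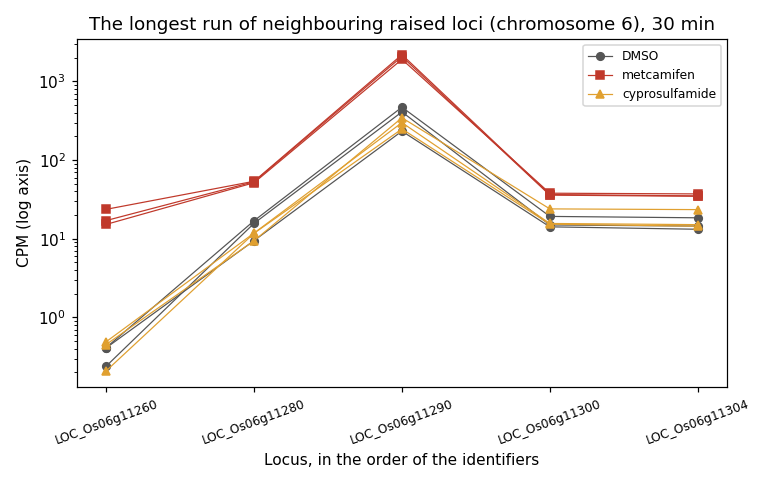
CPM on a log axis of the 5 loci of the longest run, on chromosome 6, in the order of their identifiers, with 1 line per library at 30 min. The 3 metcamifen lines (red) lie above all DMSO and cyprosulfamide lines at each locus, most widely at LOC_Os06g11260. The levels within the run span from 0.209 CPM, in a cyprosulfamide library, to 2192 CPM.

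Chromosome 10 held the largest share of raised loci, 35 of 1413 tested (2.48%), followed by chromosome 1 with 53 of 3581 (1.48%). The smallest share was on chromosome 12, with 12 of 1581 (0.759%). Lowered loci were most frequent on chromosome 7, at 7 of 2022 (0.346%), and chromosome 10 had 1. Part of the excess on chromosome 10 lay in one stretch. Between LOC_Os10g38140 and LOC_Os10g38780, 9 of the tested loci were raised and 0 lowered, with log2 fold changes from 0.90 to 4.09. Among these 9, 1 locus had an adjusted p of 0.0303 (edgeR). It lost its call under 4 of the 15 alternative settings, each of them without a single library. A window of 1000 locus numbers from its first locus held 43 tested loci, of which 20.9% were raised, the largest number in any such window. The next windows outside this stretch held 7 raised loci of 52 tested (13.5%), also on chromosome 10, and 6 of 27 on chromosome 9. By share the window on chromosome 9 was the denser, at 22.2%. These windows were found after the calls were seen, and no test was made of them.

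**Figure D4:**
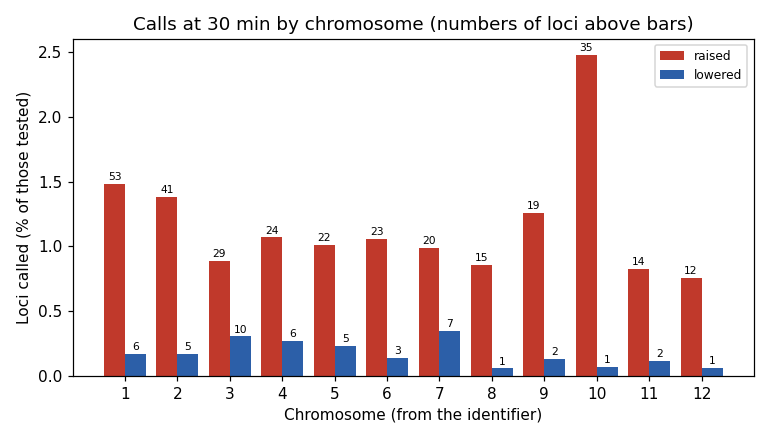
Bars give the loci raised (red) and lowered (blue) at 30 min as a percentage of the loci tested on each chromosome, with the number of loci above each bar. Chromosome 10 stands highest with 35 raised loci, 2.48% of those tested, and the other chromosomes lie between 0.759 and 1.48%.

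A pair of neighbours in that stretch, singled out after the values were seen, differed in their course over time. LOC_Os10g38150 stood at 1.02, 2.1 and 1.77 CPM in DMSO and at 25.7, 26.6 and 30.2 CPM under metcamifen at 30 min (log2 fold change 4.09 with SE 0.206, adjusted p = 1.51e-12, edgeR). The adjacent LOC_Os10g38140 stood at 6.66, 6.77 and 6.67 CPM in DMSO and at 13.4, 11.7 and 12.8 CPM under metcamifen (log2 fold change 0.90 with SE 0.121, adjusted p = 2.25e-05). By 240 min the log2 fold change of the first was 1.55 and that of the second 2.21. The change from 30 to 240 min was -2.54 for LOC_Os10g38150 with SE 0.311 (adjusted p = 3.08e-05) and 1.30 for LOC_Os10g38140 with SE 0.168 (adjusted p = 5.73e-05), each tested as a difference of effects in edgeR.

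The loci raised at 30 min were followed to the later times. The later libraries entered the fit at 30 min through the low-count filter and the shared estimate of the spread. With the 6 compared libraries alone, 250 of the 307 raised loci and 15 of the 49 lowered kept their calls. At 90 min metcamifen raised 1189 loci (4.49%) and lowered 384 (1.45%), and at 240 min it raised 809 (3.06%) and lowered 422 (1.59%). Of the 307 loci raised at 30 min, 288 were raised at 90 min and 0 lowered, and 169 were raised at 240 min and 1 lowered. The log2 fold change was positive at 305 of them at 90 min and at 273 at 240 min. Over all 26465 loci tested it was positive at 12536 and at 12845. Their median went from 1.38 to 1.98 at 90 min and 0.77 at 240 min, beside medians of -0.01 over all loci at both later times. The controls differ between times, but same-numbered libraries of one treatment correlated over the times, so the 3 comparisons are not fully independent. Passing the threshold at 30 min and at neither later time was seen for 16 of the raised loci.

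The lowered loci behaved less uniformly. Of the 49, 14 were lowered at 90 min and 6 raised, and at 240 min 5 were lowered and 3 raised. Their median log2 fold change went from -0.81 at 30 min to -0.38 and then -0.05 at the later times. LOC_Os07g25540 was among the 6 that were raised at 90 min. It stood at 67.2, 55.3 and 52.9 CPM in DMSO of 90 min and at 118, 132 and 116 CPM under metcamifen, a log2 fold change of 1.06 with SE 0.0879 (adjusted p = 3.47e-09, edgeR) after one of -0.62 at 30 min. LOC_Os03g06840 stayed low at 90 min, at 32.4 ± 1.32 against 58.5 ± 4.62 CPM (SD, n = 3), and stood at 48.8 ± 3.22 against 44.0 ± 6.26 CPM at 240 min, where its adjusted p was 0.615.

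**Figure D5:**
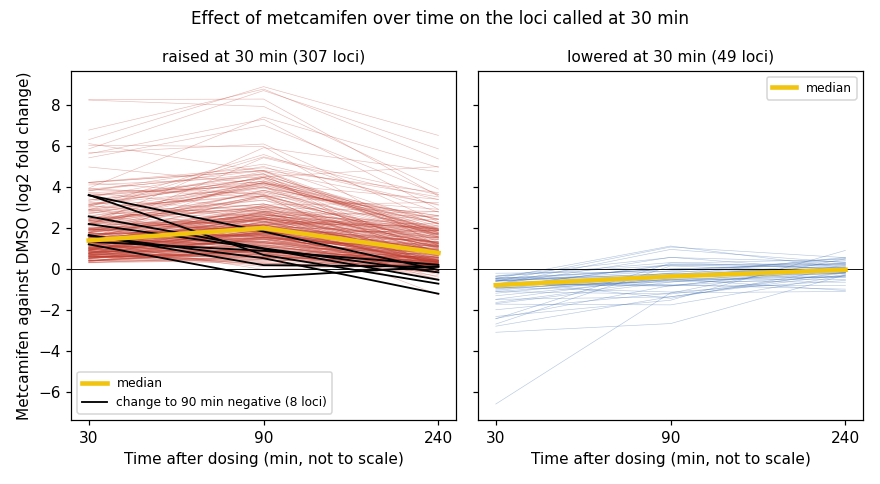
Log2 fold change of metcamifen against DMSO at 30, 90 and 240 min, with 1 thin line for each of the 307 loci raised at 30 min (left) and the 49 lowered (right), and a yellow line for the median. The median of the raised loci goes from 1.38 to 1.98 and 0.77, that of the lowered loci from -0.81 to -0.38 and -0.05, and black lines mark the 8 raised loci whose change of effect to 90 min was negative.

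The change of effect from 30 to 90 min was more positive for 401 loci (1.52% of those tested) and more negative for 47 (0.178%). From 30 to 240 min it was more positive for 203 (0.767%) and more negative for 149 (0.563%). Of the 307 raised loci, 103 had a more positive effect at 90 min and 8 a more negative one, and at 240 min 20 had a more positive and 88 a more negative one. The 30 min libraries enter both the choice of loci and these changes, so the counts over the raised loci are descriptions. The smaller counts moved with single libraries. The 47 were 80 without metcamifen replicate 1 of 30 min, 26 without replicate 2, 28 without replicate 3 and 30 without DMSO replicate 2. The 203 were 130 without metcamifen replicate 2 of 30 min, and the 149 were 99 without DMSO replicate 2. With the replicate number as a block within each treatment, the changes to 90 min numbered 1231 more positive and 253 more negative, and those to 240 min 561 and 441.

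At some loci the effect grew after 30 min. LOC_Os09g33680 stood at 140, 149 and 128 CPM in DMSO and at 286, 293 and 305 CPM under metcamifen at 30 min, a log2 fold change of 1.08 with SE 0.0847 (adjusted p = 3.8e-09, edgeR). At 90 min it stood at 1193, 1274 and 1266 CPM, and at 240 min at 960, 1074 and 1038 CPM, with DMSO means of 144 and 109 CPM. Its effect grew by 2.03 with SE 0.119 (adjusted p = 4.08e-10) to 90 min and by 2.15 with SE 0.12 (adjusted p = 1.18e-10) to 240 min. LOC_Os01g72570 went from a log2 fold change of 0.74 at 30 min to 2.31 at 90 min, a change of 1.57 with SE 0.101 (adjusted p = 1.36e-09). LOC_Os05g46480 had not been called at 30 min, at 38.1 ± 5.1 against 36 ± 2.37 CPM (SD, n = 3, adjusted p = 0.909), and stood at 149 ± 6.32 against 31.8 ± 5.17 CPM at 240 min. Its change of effect was 2.13 with SE 0.142 (adjusted p = 2.81e-09).

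At other loci the level under metcamifen was lower at 240 than at 30 min. LOC_Os01g42700 stood at 85.7, 86.8 and 89.1 CPM in DMSO and at 222, 211 and 221 CPM under metcamifen at 30 min, then at 145, 151 and 151 CPM at 90 min and 86.2, 89.3 and 89.9 CPM at 240 min. The treated libraries were thus near the level of the DMSO libraries of 240 min, 80.3, 76.0 and 76.7 CPM, by the end. Its log2 fold changes were 1.32, 0.87 and 0.19, and the change from 30 to 240 min was -1.13 with SE 0.0798 (adjusted p = 5.67e-09, edgeR). LOC_Os04g02050 went from 110.2 ± 15 CPM at 30 min (log2 fold change 3.13) through 164 ± 11.7 CPM at 90 min to 23.5 ± 2.89 CPM at 240 min (log2 fold change 0.78), a change from 30 to 240 min of -2.36 with SE 0.2 (adjusted p = 1.92e-07). LOC_Os07g23570 and LOC_Os01g08440 were at 310 ± 10.6 and 109 ± 8.63 CPM at 90 min and at 12.6 ± 0.655 and 8.41 ± 0.821 CPM at 240 min, with DMSO means of 1.73 and 0.203 CPM at 240 min. The change of effect from 30 to 240 min was -2.71 at LOC_Os07g23570 (adjusted p = 3.23e-05) and -1.41 with SE 0.606 at LOC_Os01g08440, which did not pass (adjusted p = 0.455).

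A pair of loci that were raised at 30 min and did not pass the threshold at 90 min was singled out after the values were seen. LOC_Os04g35390 stood at 0.205, 0.18 and 0.591 CPM in DMSO and at 3.1, 3.94 and 4.63 CPM under metcamifen at 30 min, a log2 fold change of 3.60 with SE 0.374 (adjusted p = 4.76e-07, edgeR). At 90 min it was at 0.998 ± 0.29 against 0.646 ± 0.181 CPM (SD, n = 3, adjusted p = 0.473). The change was -2.93 with SE 0.555 (adjusted p = 0.00311), and its adjusted p was 0.0633 with all libraries thinned. Without DMSO replicate 3 the log2 fold change at 30 min was 4.32 and the change -3.64. LOC_Os03g17670 was the 1 locus raised at 30 min and lowered at 240 min. It stood at 4.76, 3.24 and 6.97 CPM in DMSO and at 17.1, 15.5 and 13.4 CPM under metcamifen at 30 min (log2 fold change 1.61 with SE 0.19, adjusted p = 3.46e-06). At 90 min it stood at 9.49 ± 1.26 against 6.62 ± 0.965 CPM (log2 fold change 0.51 with SE 0.187, adjusted p = 0.14, edgeR). Its change from 30 to 90 min was -1.10 with SE 0.266, and lost its call under 5 of the 15 alternative settings. At 240 min it stood at 2.52 ± 0.472 against 6.03 ± 0.852 CPM (log2 fold change -1.22 with SE 0.208, adjusted p = 0.000474).

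The loci named for a more negative effect at 90 min did not pass the threshold at 30 min. LOC_Os03g43510 was at 30.0 ± 4.9 CPM under metcamifen and 27.6 ± 3.51 CPM in DMSO at 30 min (SD, n = 3, adjusted p = 0.879 in edgeR), and at 15.3 ± 1.97 against 37.7 ± 5.97 CPM at 90 min, a change of effect of -1.43 with SE 0.179 (adjusted p = 2.45e-05). LOC_Os03g02460 was at 131 ± 11.5 against 135 ± 15.3 CPM at 30 min (adjusted p = 0.977) and at 67.8 ± 5.25 against 131 ± 4.12 CPM at 90 min, a change of -0.92 with SE 0.117 (adjusted p = 3.23e-05).

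Metcamifen was also set against cyprosulfamide at the same dose and time, to ask how far another safener moved these loci. Metcamifen libraries stood above cyprosulfamide libraries at 311 loci (1.18%) and below them at 65 (0.246%). This comparison and that with DMSO share the metcamifen libraries, so no overlap between them is given. The 65 were 39, 33 and 29 without metcamifen replicate 1, 2 or 3, 23 without cyprosulfamide replicate 2 and 134 without cyprosulfamide replicate 3. The cyprosulfamide libraries held 23743177, 43747251 and 23881831 counts, against 7278921 to 26162571 in the metcamifen libraries. Against DMSO at 30 min, cyprosulfamide raised 1 locus and lowered 0 of the 26465 tested (adjusted p under 0.05, edgeR). Over the loci that metcamifen raised, the log2 fold change of cyprosulfamide against DMSO had a median of 0.06, beside 1.38 for metcamifen. Over the loci that it lowered, the median was -0.17 beside -0.81, and over all loci it was -0.02. The loci were chosen against the same DMSO libraries, so these medians are descriptions, and how far that choice moved them was not tested.

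At LOC_Os01g16146 the cyprosulfamide libraries stood at 7.85, 6.96 and 8.34 CPM, all below the DMSO libraries and far below the lowest metcamifen library. The log2 difference between metcamifen and cyprosulfamide was 3.72 with SE 0.12 (adjusted p = 5.98e-16, edgeR), and cyprosulfamide differed from DMSO by -0.39 with SE 0.12 (adjusted p = 0.309). LOC_Os01g08440 had 10, 23 and 7 counts in cyprosulfamide, 0.417 ± 0.131 CPM (SD, n = 3), a log2 difference of 6.62 from metcamifen with SE 0.235 (adjusted p = 2.64e-15) and of 0.14 from DMSO with SE 0.41. LOC_Os07g25540 stood at 61.5, 64.6 and 66.5 CPM in cyprosulfamide, above every metcamifen library, with metcamifen lower by a log2 difference of -0.78 with SE 0.0892 (adjusted p = 2.06e-06). LOC_Os01g12440 stood at 24.5, 27.4 and 24.1 CPM under metcamifen, 44.3, 52.8 and 41.3 CPM under cyprosulfamide and 42.4, 36.6 and 38.3 CPM in DMSO. Its log2 difference was -0.86 from cyprosulfamide with SE 0.101 (adjusted p = 3.24e-06) and -0.62 from DMSO with SE 0.102 (adjusted p = 0.00044). An adjusted p above the threshold between cyprosulfamide and DMSO does not show that these were alike.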

How the data were processed

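PolyA RNA was sequenced, and the deposited table holds whole-number counts per locus and library, not normalized; its unit was checked from the values. GSNAP and edgeR are named in the submitters' processing notes, without versions; the genome build, annotation and use of strand are not stated there. Groups follow the labels of treatment, time and replicate. Loci with low counts were removed with filterByExpr (minimum count 10, minimum total 15), counts were scaled by TMM, and edgeR 4.0.16 in R 4.3.3 (glmQLFit, glmQLFTest) was fitted with 9 group means over all 27 libraries, leaving 18 residual degrees of freedom, so that all groups share 1 estimate of the spread. P-values were adjusted by Benjamini-Hochberg over 26465 loci within each contrast. Standard errors were computed as the fold change over the square root of F. The procedure was tested on simulated data. Alternatives used DESeq2 1.42.0 and sva 3.50.0.

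Loci were named by rule, at most 2 in each direction per comparison, with the smallest p, a mean of at least 1 CPM and no overlap between groups; others are said to be singled out. For a change of effect, overlap was judged between the metcamifen libraries of both times. The libraries, the loci and the comparisons were chosen with earlier results of these data known. Same-numbered metcamifen and DMSO libraries of 30 min did not deviate together (correlations -0.444, -0.298 and -0.367), so they were not paired. Over the times, same-numbered DMSO libraries correlated at 0.354 to 0.824 and metcamifen libraries at 0.246 to 0.738, which pairs the times within a treatment. The fit takes the libraries as independent all the same.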

Additional observations from a re-analysis of the deposited data

Results flagged for a closer look

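At 22 of the 27 named loci, the effect of metcamifen differed between times by the test of that difference (edgeR, adjusted p under 0.05), in 33 tests. Some of these loci were named for the smallest p in these same tests. Others were singled out after the values were seen, so the count of 22 is a description. Among all loci tested, the change to 90 min was more positive at 1.52% and more negative at 0.178%. To 240 min the shares were 0.767% and 0.563%. The values below are changes of the log2 fold change, and 3 libraries stood in each of the 4 groups of a test. From 30 to 90 min the change was 1.68 at LOC_Os07g25540, where the log2 fold change went from -0.62 to 1.06. Over the same time the effect grew by 1.30 at LOC_Os01g16146, 1.69 at LOC_Os07g23570, 2.03 at LOC_Os09g33680, 1.57 at LOC_Os01g72570, 0.82 at LOC_Os05g46480, 0.85 at LOC_Os04g02050, 0.65 at LOC_Os05g07700 and 1.24 at LOC_Os10g38140. It changed over the same time by -1.43 at LOC_Os03g43510, -0.92 at LOC_Os03g02460, -0.45 at LOC_Os01g42700, -2.93 at LOC_Os04g35390 and -1.10 at LOC_Os03g17670. The change at LOC_Os03g17670 no longer passed the threshold with the compared libraries alone, or without metcamifen replicate 1 or 2 or DMSO replicate 1 or 2 of 30 min (adjusted p up to 0.119). Those at LOC_Os01g42700 and LOC_Os04g35390 did not pass once all libraries were thinned (adjusted p of 0.0588 and 0.0633). The changes at LOC_Os09g33680, LOC_Os01g72570, LOC_Os03g43510 and LOC_Os03g02460 passed in all 15 settings. The other changes to 90 min listed here were not recomputed under other settings.

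From 30 to 240 min the effect changed by 1.16 at LOC_Os07g25540, 0.90 at LOC_Os03g06840, 1.01 at LOC_Os01g12440, 2.15 at LOC_Os09g33680, 2.13 at LOC_Os05g46480 and 1.30 at LOC_Os10g38140. It changed by -1.76 at LOC_Os01g16146, -2.71 at LOC_Os07g23570, -0.60 at LOC_Os03g02460, -1.13 at LOC_Os01g42700, -2.36 at LOC_Os04g02050, -4.33 at LOC_Os04g35390, -2.83 at LOC_Os03g17670 and -2.54 at LOC_Os10g38150. In the run on chromosome 6 it changed by -3.37 at LOC_Os06g11260, -1.51 at LOC_Os06g11280, -1.62 at LOC_Os06g11290, -1.26 at LOC_Os06g11300 and -1.26 at LOC_Os06g11304. The changes to 240 min were recomputed under other settings at LOC_Os09g33680, LOC_Os05g46480, LOC_Os01g42700 and LOC_Os04g02050, where they passed in all 15.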

How the results depend on the processing

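Of the results recomputed under other settings, 1071 values kept direction and side of the threshold or stayed within the limits, 47 counts or shares moved, 34 values of single loci, at 13 loci, lost a call, and 0 reversed; the causes were not tested. With 1 surrogate variable the counts were 476 raised, 95 lowered (28 at least 2-fold), 501 higher and 115 lower than cyprosulfamide, 774 and 172 for a more positive and more negative effect at 90 min, and 477 and 397 at 240 min. With the compared libraries alone they were 16 lowered (5 at least 2-fold), 14 lower than cyprosulfamide, and 122 and 76 for the changes to 240 min. Thinned to the smallest library they were 26 lowered (8 at least 2-fold), 27 more negative at 90 min and 117 more positive at 240 min. No low-count filter gave 35 lowered at least 2-fold and 114 lower than cyprosulfamide, and DESeq2 gave 76 more negative at 90 min. The replicate block within treatment gave 1231, 253, 561 and 441 changes of effect (more positive and more negative to 90 min, then to 240 min). At 30 min, a block by replicate number over all 27 libraries gave 295 raised and 51 lowered. The numbers do not pair the metcamifen and DMSO libraries.

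Omitting single libraries gave 265 to 287 raised, 17 to 75 lowered, 184 to 212 raised and 5 to 35 lowered at least 2-fold, 279 to 336 higher and 23 to 134 lower than cyprosulfamide, 293 to 496 and 26 to 80 for the changes to 90 min, 130 to 189 and 99 to 147 for those to 240 min, and 22.3 to 24.4% of raised loci with a raised neighbour (18.2% with numbers at most 10 apart). The median log2 fold change of all loci at 30 min lay between -0.0118 (thinned) and 0.0110 (without DMSO replicate 1). Metcamifen replicate 1, with 7278921 counts, limits what low loci can show.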
